A study of Homo sapiens with 8 samples.

Results

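The genes described here encode the enzymes of sterol and fatty acid synthesis and the SREBP factors that control them, a list of 35 genes. Each was read from the probe set that carried its symbol alone and had the highest mean over the 8 arrays, and 32 of the 35 members were measured among 19775 genes in all. The sterol branch held 16 of 18 listed genes, the fatty acid branch 9 of 10, and a group of regulators and related genes 7 of 7. No probe set carried the symbol of FDFT1, CYP51A1 or FADS1 alone, and these 3 genes were not analysed here. The rule names the genes by function and sets no measured difference as a condition. The list was, however, chosen with earlier results of these data known, so counts over its members are description and not independent evidence.

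The cells were NCI-H1975, a long-established line from a human lung adenocarcinoma that depends on a mutant EGFR. The 4 drug treatments were DMSO vehicle, 10 nM osimertinib (a covalent inhibitor of mutant EGFR), 1 µM alpelisib (an inhibitor of the PI3K alpha catalytic subunit) and both drugs together. Every treatment was repeated in cells exposed to 2 mM L-histidinol, a histidine analog that blocks the charging of the histidine tRNA, and all cells were taken at 24 hours. All groups grew in serum-containing medium and were measured on 1 Affymetrix 3′ expression array each. No condition had a replicate array, so differences were judged by how well they repeated across the other treatment, and the p-values measure only the departure of these 8 arrays from additive effects, which holds noise and any interaction together.

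Cholesterol and fatty acids are both built from acetyl-CoA. In the sterol branch, acetyl-CoA units are joined and reduced to mevalonate, converted to isoprenoids, joined to squalene, closed to lanosterol and trimmed to cholesterol. In the fatty acid branch, acetyl-CoA is carboxylated to malonyl-CoA, polymerised to palmitate, and then elongated and desaturated. Transcription of both branches is driven by the SREBP factors, which are made as precursors in the endoplasmic reticulum and released by cleavage when sterol is low. SREBF2 encodes the factor that acts mainly on sterol genes and SREBF1 the factors that act more on fatty acid genes, while the INSIG proteins hold the precursors back when sterol is plentiful.

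The promoter sequences of 7 members are shown because these genes stand for the patterns described below. HMGCS1, EBP and MSMO1 are sterol genes that were lower with L-histidinol, LSS is the sterol gene that rose most with the drug combination, ELOVL6 is the fatty acid gene that fell most with it, and SREBF1 and SREBF2 encode the SREBP factors. Each run is the 250 bases before the annotated transcription start, 5′ to 3′ on the gene's own strand, from RefSeq on GRCh38.p14, with the CCAAT motif or its reverse complement ATTGG in capitals. In SREBF2 the capitals also mark the core of a sterol regulatory element, searched as TCACNCCAC on both strands.
HMGCS1 (chr5:43313413-43313662, minus strand): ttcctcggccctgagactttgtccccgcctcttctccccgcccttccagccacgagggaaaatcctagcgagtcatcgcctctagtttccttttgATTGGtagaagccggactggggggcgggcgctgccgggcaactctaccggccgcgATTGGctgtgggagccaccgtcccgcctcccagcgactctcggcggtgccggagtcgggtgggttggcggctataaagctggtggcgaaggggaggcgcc
EBP (chrX:48521558-48521807, plus strand): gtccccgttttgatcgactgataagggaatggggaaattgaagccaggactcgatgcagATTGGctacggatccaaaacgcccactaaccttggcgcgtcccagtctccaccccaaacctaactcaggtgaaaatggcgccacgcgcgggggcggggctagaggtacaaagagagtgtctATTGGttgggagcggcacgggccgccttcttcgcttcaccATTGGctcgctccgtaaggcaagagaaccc
MSMO1 (chr4:165327419-165327668, plus strand): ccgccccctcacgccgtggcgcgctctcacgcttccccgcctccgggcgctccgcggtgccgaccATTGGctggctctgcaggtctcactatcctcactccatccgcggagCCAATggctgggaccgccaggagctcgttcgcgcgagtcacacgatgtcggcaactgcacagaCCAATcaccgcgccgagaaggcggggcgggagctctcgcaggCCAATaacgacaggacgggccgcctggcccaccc
LSS (chr21:46228775-46229024, minus strand): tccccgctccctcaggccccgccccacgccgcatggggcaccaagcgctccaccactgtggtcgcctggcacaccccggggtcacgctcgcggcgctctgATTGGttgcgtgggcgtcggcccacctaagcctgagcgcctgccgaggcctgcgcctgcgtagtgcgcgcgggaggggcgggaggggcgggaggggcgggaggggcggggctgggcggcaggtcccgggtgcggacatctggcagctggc
ELOVL6 (chr4:110198616-110198865, minus strand): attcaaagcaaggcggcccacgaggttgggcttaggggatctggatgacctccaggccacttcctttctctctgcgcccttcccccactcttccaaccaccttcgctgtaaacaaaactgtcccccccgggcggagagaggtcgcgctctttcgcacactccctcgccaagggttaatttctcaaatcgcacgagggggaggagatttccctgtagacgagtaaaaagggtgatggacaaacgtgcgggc
SREBF1 (chr17:17836987-17837236, minus strand): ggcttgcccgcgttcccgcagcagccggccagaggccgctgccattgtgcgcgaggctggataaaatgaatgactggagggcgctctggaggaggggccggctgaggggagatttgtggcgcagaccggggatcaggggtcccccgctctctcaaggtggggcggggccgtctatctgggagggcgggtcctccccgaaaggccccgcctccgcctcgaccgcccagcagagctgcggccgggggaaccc
SREBF2 (chr22:41832855-41833104, plus strand): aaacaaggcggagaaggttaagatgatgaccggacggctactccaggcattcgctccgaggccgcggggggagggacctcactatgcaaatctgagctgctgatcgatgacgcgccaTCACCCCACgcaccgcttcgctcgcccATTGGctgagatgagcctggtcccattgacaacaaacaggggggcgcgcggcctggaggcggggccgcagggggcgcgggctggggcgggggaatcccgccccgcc

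The printed MSMO1 promoter held 4 copies of the CCAAT motif, EBP 3, HMGCS1 2, and LSS and SREBF2 1 each, while those of ELOVL6 and SREBF1 held 0. HMGCS1 has a second annotated start, and the window before it, not printed, held 0. Promoters of 31 of the 35 members were found in the RefSeq table, 45 windows of 300 bases in all, since 11 members had several starts and some of their windows overlap. CCAAT was in 27 of the 45 windows (60%) against 34.6% of all 35116 human promoter windows of the same length, both strands searched. By branch it was in 15 of 20 sterol windows (75%), 9 of 15 fatty acid windows (60%) and 3 of 10 windows of the regulators (30%). The GC box GGGCGG was in 38 of 45 (84.4%) against 45% of all windows, and the E-box CACGTG in 5 of 45 (11.1%) against 7.26%. The sterol element core TCACNCCAC was in 1 of 45, the SREBF2 window, where it lies 133 bases before the start, against 1.13% of all windows. These are matches of letters in a window and were not tested for binding.

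Median intensities of the normalized arrays spanned only 21.8 to 22.4. Genes known to respond to each agent moved with it: DUSP6, a feedback phosphatase of the EGFR to ERK pathway, fell by 3.99 on the log2 scale with osimertinib, CCNG2, a target of FOXO factors, rose by 1.14 with alpelisib, and ASNS, an amino acid stress gene, rose by 2.02 with L-histidinol. All 7 lung epithelial markers were bright (log2 intensity 7.0 to 13.28). They moved too, with 4 of 7 called lower with L-histidinol (median −0.28), against 9.17% of all genes. With osimertinib and with the combination 5 of 7 were called higher (median 0.41 each), against 16.4% and 21.4% of all genes. Alpelisib had 4 of 7 called higher (median 0.24), against 7.08% of all genes. The part of these lung markers in the results was not tested. By contrast, the 15 markers of fibroblasts, blood, endothelium, adipocytes and hepatocytes stayed between 1.48 and 5.43. Of these 15, LUM was called higher with osimertinib (0.63) and, with CDH5, under the combination (1.23 and 0.78), and their part in the results was not tested.

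Across the 8 arrays the branches took different courses. Relative to the vehicle array, the median sterol gene stood at 0.17 log2 units with osimertinib, −0.02 with alpelisib and −0.28 with both drugs, and then at −0.52 with L-histidinol alone, −0.37 with osimertinib added, −0.31 with alpelisib added and −0.38 with all 3 agents. The median fatty acid gene stood at −0.04, −0.16 and −0.35 with osimertinib, alpelisib and both drugs, and at −0.13, −0.30, −0.26 and −0.38 on the arrays with L-histidinol in the same order. The median of all 19775 genes was within 0.02 of the vehicle array throughout. The median sterol gene was thus lower on each L-histidinol array than on any array without it, whereas the median fatty acid gene was lowest with both drugs, without and with L-histidinol. The spread within a branch was wide, and on the array with all 3 agents the sterol genes ran from −1.46 (DHCR7) to 0.88 (TM7SF2).

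**Figure D1:**
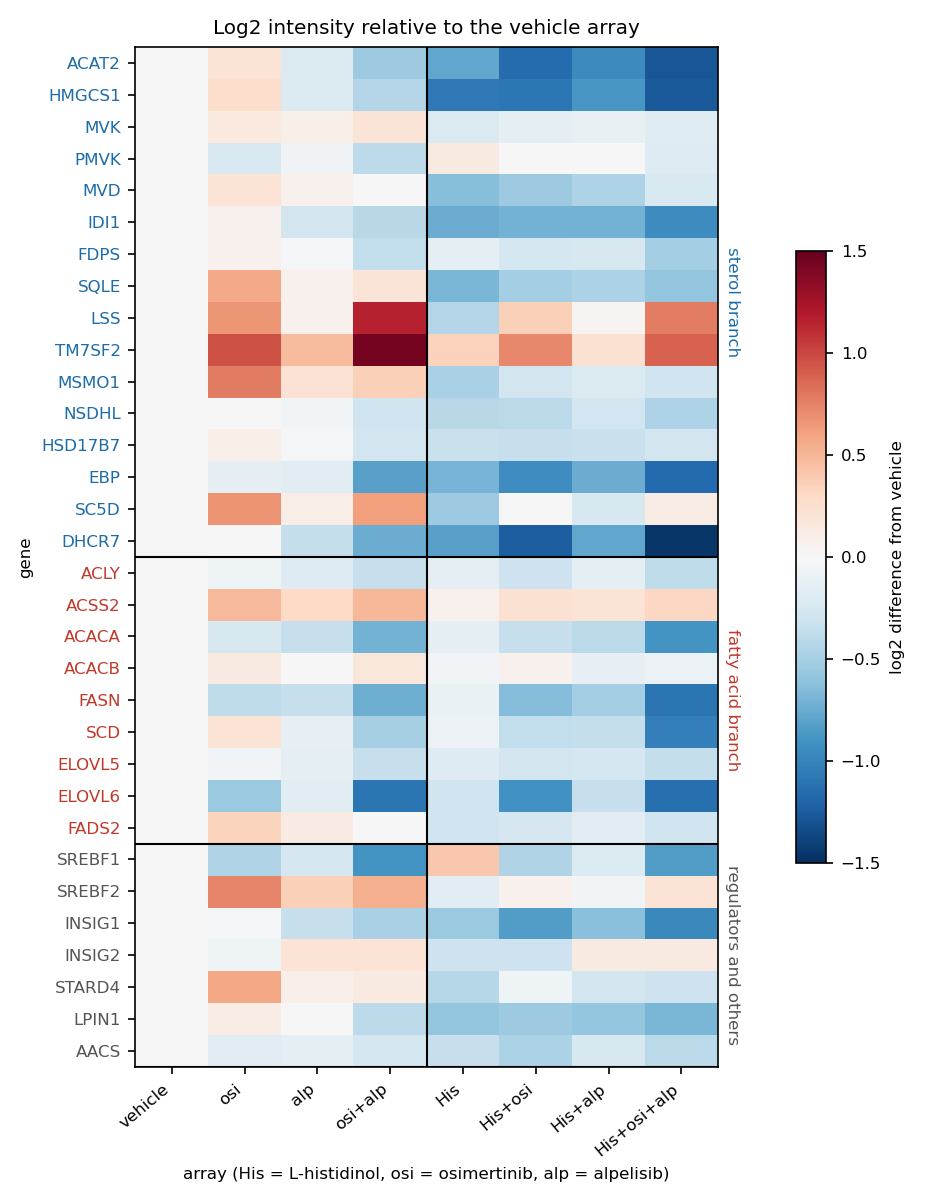
Log2 intensity of the 32 members (rows, by branch) on the 8 arrays (columns), each minus the vehicle array, with 1 array per condition and a colour scale from −1.5 to 1.5 log2 units. Most sterol rows are blue on the 4 arrays with L-histidinol to the right of the vertical line, LSS and TM7SF2 are red where osimertinib was given, and ACACA, FASN and ELOVL6 are darkest where both drugs were given.

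The first comparison asked how L-histidinol, given to mimic histidine starvation, changed the 2 branches. With L-histidinol 14 of 16 sterol genes fell, 4 of 9 fatty acid genes fell, 5 of 7 regulators and related genes fell, and no member rose. This is 23 of 32 members lower and 0 higher, against 9.17% of all genes lower and 11.4% higher, at an adjusted p below 0.05 (limma, additive fit over 8 arrays, Benjamini-Hochberg over 19775 genes). The median difference was −0.53 log2 units in the sterol branch, −0.14 in the fatty acid branch and −0.40 among the regulators, against −0.01 over all genes. The difference between the branches was described and not tested.

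HMGCS1, which condenses acetoacetyl-CoA and acetyl-CoA ahead of mevalonate, showed the largest fall. Its log2 intensity was 7.60 with vehicle, 7.86 with osimertinib, 7.39 with alpelisib and 7.16 with both drugs, and 6.53, 6.52, 6.73 and 6.34 on the L-histidinol arrays in the same order. Every L-histidinol array lay below every other array, and the fitted difference was −0.97 ± 0.10 (SE, 4 array pairs, limma adjusted p = 9.5e-05), a ratio of 0.51. ACAT2, the thiolase that makes acetoacetyl-CoA for the same step, gave 8.81, 9.01, 8.61 and 8.26 without L-histidinol in that drug order and 8.03, 7.65, 7.85 and 7.53 with it. Here too the groups did not overlap, and ACAT2 was lower by a ratio of 0.53 (difference −0.91 ± 0.09, limma adjusted p = 0.00011). IDI1, which isomerises the isoprenoid building block, went from 9.17, 9.23, 8.89 and 8.75 to 8.42, 8.46, 8.46 and 8.23, again without overlap (−0.62 ± 0.06, limma adjusted p = 0.00012). The IDI1 value rests on probe sets marked as possibly cross-hybridising, since its other such probe sets gave −0.60 and −0.13 but the only unmarked one, at a mean log2 intensity of 4.0, gave 0.06 (limma adjusted p = 0.81).

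Further down the pathway, SQLE, the squalene epoxidase that commits carbon to sterols, measured 9.74, 10.31, 9.80 and 9.93 without L-histidinol and 9.05, 9.23, 9.26 and 9.15 with it. The SQLE difference was −0.77 ± 0.07 (limma adjusted p = 6.4e-05), with all 4 L-histidinol arrays below the other 4, and its 3 further probe sets gave −0.82, −0.60 and −0.36. MSMO1, a demethylase acting on methylated sterols, dropped from 9.42, 10.20, 9.64 and 9.78 to 8.93, 9.14, 9.20 and 9.12 (−0.66 ± 0.09, limma adjusted p = 0.00041). DHCR7, which reduces the last double bond on the way to cholesterol, changed from 7.91, 7.91, 7.55 and 7.16 to 7.09, 6.67, 7.13 and 6.45 (−0.80 ± 0.11, limma adjusted p = 0.00044), and its groups were separated by little, with 7.16 the lowest value without and 7.13 the highest with L-histidinol. EBP, the sterol isomerase whose promoter is shown above, fell by 0.61 and MVD, which makes the isoprenoid unit, by 0.54. SC5D (−0.51), NSDHL (−0.31), LSS (−0.29), MVK (−0.27), HSD17B7 (−0.27) and FDPS (−0.21) completed the 14. The 2 sterol genes that missed the threshold were PMVK, a kinase of the mevalonate segment, at 0.15 ± 0.05 (adjusted p = 0.062), and TM7SF2, a sterol reductase, at −0.18 ± 0.12 (adjusted p = 0.37), in the same limma fit. On the vehicle pair TM7SF2 was higher with L-histidinol (0.34), and without the vehicle array its fitted difference was −0.35 and passed the test.

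In the fatty acid branch the falls were smaller. FADS2, a desaturase of polyunsaturated fatty acids, and SCD, which makes oleate, each fell by 0.36, FASN, the fatty acid synthase, by 0.23, and ELOVL6, an elongase of palmitate, by 0.22. All 9 fitted differences were below 0, but ACLY (−0.10), ACSS2 (−0.12), ACACB (−0.12), ACACA (−0.13) and ELOVL5 (−0.14) did not pass the test. Arrays with and without L-histidinol did not overlap for 9 of 16 sterol genes, 1 of 9 fatty acid genes and 3 of 7 regulators, all with the L-histidinol arrays below. Among them HSD17B7 was barely separated, with 7.94 the lowest value without and 7.93 the highest with L-histidinol. The share of all genes without overlap was not determined, so these counts have no background to be read against.

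Of the SREBP genes, SREBF2 fell and SREBF1 did not pass the test. SREBF2 read 6.86, 7.59, 7.22 and 7.39 without L-histidinol and 6.69, 6.92, 6.82 and 7.06 with it (−0.40 ± 0.08, limma adjusted p = 0.0049), lower in 4 of 4 pairs though the groups overlapped. SREBF1 read 6.44, 5.99, 6.19 and 5.54 without and 6.84, 5.99, 6.23 and 5.60 with it (0.13 ± 0.08, limma adjusted p = 0.33), so that its fitted value came mostly from the vehicle pair, where it was 0.40 higher. INSIG1, itself a sterol-responsive gene, decreased from 9.03, 9.0, 8.68 and 8.54 to 8.47, 8.19, 8.40 and 8.06 without overlap (−0.53 ± 0.07, limma adjusted p = 0.00065). INSIG2 gave 7.68, 7.62, 7.89 and 7.88 without and 7.37, 7.37, 7.82 and 7.82 with L-histidinol, lower in 4 of 4 pairs but short of the threshold (−0.17 ± 0.06, limma adjusted p = 0.078). LPIN1, a phosphatidate phosphatase and coregulator, fell by 0.53, STARD4, a sterol carrier, by 0.47 and AACS, which activates acetoacetate, by 0.22.

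The drop appeared under every drug treatment. The sterol median was −0.52 on the vehicle pair, −0.71 on the osimertinib pair, −0.38 on the alpelisib pair and −0.45 on the combination pair, and the fatty acid median was −0.13, −0.26, −0.11 and −0.19. For no member did a change of the L-histidinol difference with either drug pass the test, but the test could hardly find changes of the size seen. In simulated data it recovered 0% of interactions with osimertinib of 0.5 log2 units and 62.5% of those of 1. The members' values ran from −0.44 to 0.13 for osimertinib and from −0.46 to 0.47 for alpelisib. The interaction with osimertinib called 0 of 32 members (0% of all genes; limma, 5 members at an unadjusted p below 0.05), and that with alpelisib called 0 of 32 (0% of all genes; limma, 8 members at an unadjusted p below 0.05). Both rest on 1 residual degree of freedom, and with the variance prior of the 2-way fit itself 4 members were called in each, where 896 of all 19775 genes were called for osimertinib and 278 for alpelisib. Among the members called for L-histidinol, 29 of their 31 other probe sets had the same sign, and all 22 of those with a mean log2 intensity of at least 5. Sign alone was counted, and some of the 22 changed little. Probe sets of EBP, IDI1 and SREBF2 gave −0.01, −0.13 and −0.15, against −0.61, −0.62 and −0.40 on the ones used. Without the osimertinib array, or without the array of L-histidinol with osimertinib, 15 members were called, 10 of them sterol and 1 fatty acid, all lower. Over all 19775 genes 934 and 948 were then called lower and 1226 and 1220 higher. The calls that leaving out 1 array could end were those of MVK, FDPS, LSS, HSD17B7, FASN, ELOVL6, FADS2 and AACS. The ratio of 3′ to 5′ ACTB control signal, a sign of RNA or labelling quality, was 1.04 to 1.07 without and 1.1 to 1.15 with L-histidinol, and its part in the result was not tested. The same ratio for GAPDH was 0.978 to 1.01 without and 0.966 to 0.982 with it.

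**Figure D2:**
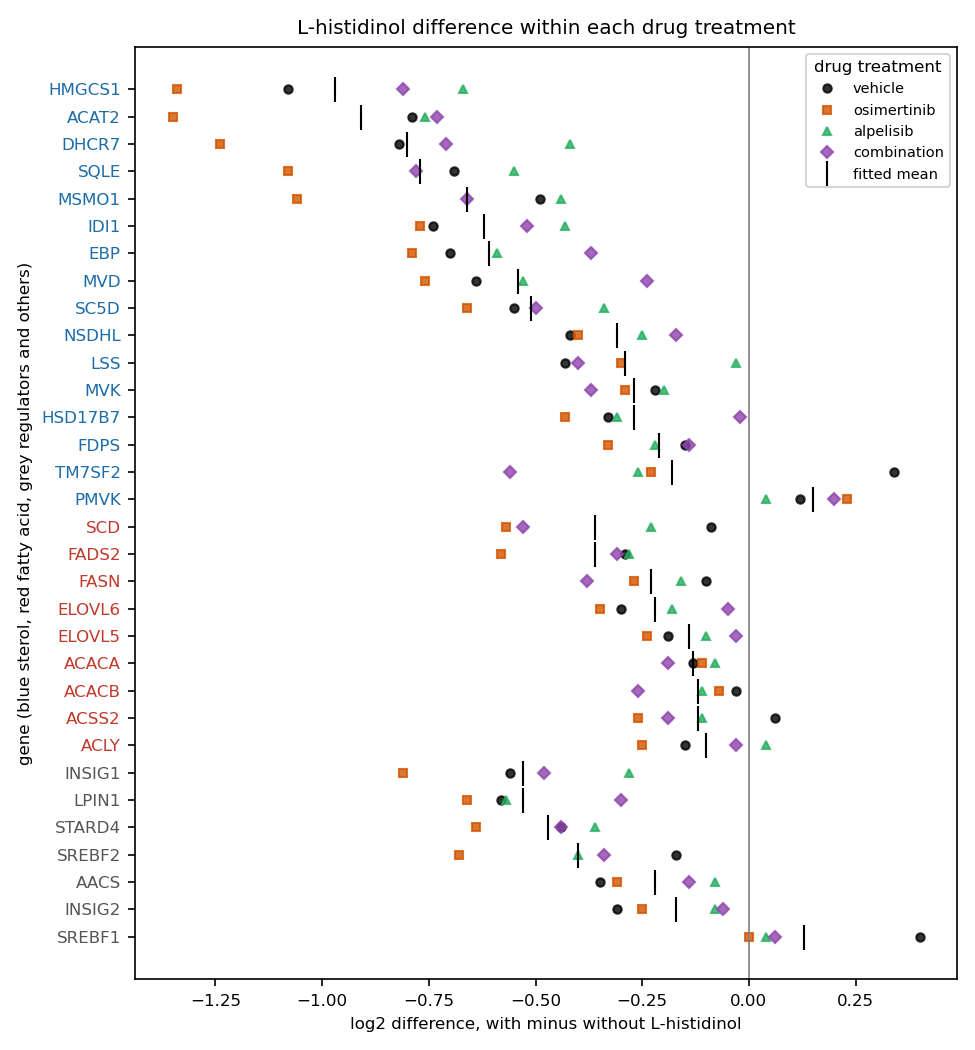
Log2 difference between the arrays with and without L-histidinol for each member (rows), 1 point for each of the 4 drug treatments, with the fitted mean as a black bar. All 4 points lie left of 0 for every called sterol gene, most widely for HMGCS1, ACAT2 and DHCR7, the fatty acid points lie closer to 0, and SREBF1 and PMVK lie at or right of 0.

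Osimertinib was compared with vehicle over 2 array pairs, to ask what EGFR inhibition alone did to these genes. In the sterol branch 5 of 16 genes rose and 0 fell, whereas in the fatty acid branch 3 of 9 fell and 1 rose. Over all members 8 rose (16.4% of all genes) and 4 fell (14% of all genes), and the median was 0.08 in the sterol branch, −0.07 in the fatty acid branch and 0.01 over all genes.

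LSS, which closes the sterol ring to lanosterol, rose most. It measured 8.25 with vehicle and 8.91 with osimertinib, and 7.81 and 8.61 when L-histidinol was present, a difference of 0.73 ± 0.10 (limma adjusted p = 0.00016) and a ratio of 1.66. TM7SF2 went from 4.81 to 5.77 without and from 5.15 to 5.53 with L-histidinol (0.67 ± 0.17, limma adjusted p = 0.011), low intensities for which no second probe set was at hand. SC5D, the sterol desaturase, rose from 8.47 to 9.14 and from 7.92 to 8.48 (0.62 ± 0.08, limma adjusted p = 0.0002). All 3 act after squalene. MSMO1 rose by 0.50 and SQLE by 0.38, both more on the pair without L-histidinol (0.78 and 0.57) than on the pair with it (0.21 and 0.19).

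In the fatty acid branch ELOVL6 fell from 9.44 to 8.88 without and from 9.14 to 8.53 with L-histidinol (−0.59 ± 0.08, limma adjusted p = 0.00024). FASN fell by 0.47 and ACACA, the acetyl-CoA carboxylase that sets the pace of fatty acid synthesis, by 0.22. ACSS2, which makes acetyl-CoA from acetate, rose by 0.33. The SREBP genes moved in opposite directions: SREBF1 fell by 0.65 (± 0.12, limma adjusted p = 0.0012) and SREBF2 rose by 0.48 (± 0.11, limma adjusted p = 0.007). From the values above, SREBF1 went from 6.44 to 5.99 and from 6.84 to 5.99, and SREBF2 from 6.86 to 7.59 and from 6.69 to 6.92. The SREBF2 rise was smaller on its other probe sets, 0.27 on one marked _s_at and 0.02 on an unmarked one (mean log2 intensity 5.90 and 5.78). STARD4 rose by 0.48, while INSIG1 (−0.15) and INSIG2 (−0.03) did not pass the test.

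These counts depended on single arrays and on scaling. Of the 12 calls, 6 were lost without the vehicle array and 7 without the osimertinib array. Those of TM7SF2, MSMO1, SQLE, SREBF2, ACSS2 and ACACA were lost in both cases. For the first 4 of these the difference was 0.32, 0.38, 0.32 and 0.33 without the vehicle array and 0.63, 0.23, 0.18 and 0.29 without the osimertinib array. With arrays centred on their medians, 6 members rose and 8 fell, the sterol median was −0.02 with 4 sterol genes higher and 2 lower, and the split over all genes went from 3246 higher and 2765 lower to 2289 higher and 4123 lower. The SC5D value rests on a probe set marked as shared by transcripts, and its only unmarked one, which was dim at a mean log2 intensity of 2.64, gave 0.08.

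Alpelisib alone called members at about the rate of all genes, 2267 of 19775. It called 4 of 32, of which INSIG2 rose (7.08% of all genes rose) and SREBF1, FASN and ACACA fell (4.38% of all genes fell). SREBF1 went from 6.44 to 6.19 without and from 6.84 to 6.23 with L-histidinol (−0.43 ± 0.12, limma adjusted p = 0.036). FASN went from 7.98 to 7.63 and from 7.88 to 7.47 (−0.39 ± 0.09, limma adjusted p = 0.019). ACACA went from 8.88 to 8.54 and from 8.74 to 8.47 (−0.30 ± 0.07, limma adjusted p = 0.019). INSIG2 rose from 7.68 to 7.89 and from 7.37 to 7.82 (0.33 ± 0.09, limma adjusted p = 0.035). Each of the 4 moved the same way on both pairs.

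None of the 16 sterol genes was called with alpelisib in limma's additive fit (0 of 16, with 2 at an unadjusted p below 0.05), and their median was 0.02 against −0.11 in the fatty acid branch and −0.00 over all genes. Adding all 2-way terms to the fit brought the members called to 13 and the calls over all genes from 2267 to 5022 of 19775. In that fit LSS (0.27), MSMO1 (0.25), SC5D (0.21) and SQLE (0.14) were among the sterol genes called higher and ACAT2 (−0.19) was called lower. All 4 calls of the additive fit were lost without the alpelisib array, and also without the array of L-histidinol with alpelisib. Without the L-histidinol array 3 of the 4 were lost, and without the osimertinib array or the array of L-histidinol with osimertinib 2. With centred arrays INSIG2 was not called and 0 members rose and 3 fell, the sterol median was −0.06, and the split over all genes went from 1401 higher and 866 lower to 953 higher and 2000 lower.

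The combination of both drugs was compared with vehicle over 2 array pairs, and it called 20 of 32 members. In the fatty acid branch 6 of 9 genes fell and 1 rose. In the sterol branch 3 of 16 rose and 6 fell, where 21.4% of all genes rose and 19.2% fell. The sterol rises were thus near the share of all genes. The sterol median was −0.14 against −0.29 for the fatty acid branch and −0.00 over all genes. It was −0.28 on the pair without L-histidinol and −0.00 on the pair with it. The fatty acid median was −0.35 and −0.23 on these pairs. In all, 6 members rose (21.4% of all genes) and 14 fell (19.2% of all genes).

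ELOVL6 fell most among the fatty acid genes, from 9.44 with vehicle to 8.35 with the combination, and from 9.14 to 8.31 when L-histidinol was present (−0.96 ± 0.08, limma adjusted p = 2.6e-06), a ratio of 0.51. FASN went from 7.98 to 7.25 and from 7.88 to 6.88 (−0.87 ± 0.09, limma adjusted p = 1.1e-05), but its second and dimmer probe set (mean log2 intensity 4.60, marked _x_at) gave 0.06, with −0.13 for osimertinib, 0.07 for alpelisib and 0.09 for L-histidinol. ACACA went from 8.88 to 8.17 and from 8.74 to 7.98 (−0.74 ± 0.07, limma adjusted p = 6.1e-06), and its other probe set gave −1.08. These 3 genes carry carbon through carboxylation, synthesis and elongation in turn. SCD fell by 0.72, with −0.81, −1.10 and −0.81 on its other probe sets, ACLY, which makes acetyl-CoA from citrate, by 0.29 and ELOVL5 by 0.26. ACSS2 rose by 0.37, and FADS2 (0.00) and ACACB (0.06) did not pass the test. The other ACACB probe sets, all dimmer than the one used, gave 0.10 to 0.70 with the combination and 0.18 to 0.50 with osimertinib.

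LSS rose from 8.25 to 9.41 without and from 7.81 to 9.02 with L-histidinol (1.18 ± 0.10, limma adjusted p = 1.7e-06), a ratio of 2.27, and its other probe sets gave 1.04 and 1.47. TM7SF2 rose from 4.81 to 6.25 and from 5.15 to 5.69 (0.99 ± 0.17, limma adjusted p = 0.00058), and SC5D by 0.64 (± 0.08, limma adjusted p = 6.8e-05), from 8.47 to 9.09 and from 7.92 to 8.58. The unmarked SC5D probe set, dim at a mean log2 intensity of 2.64, gave 0.01 with the combination and −0.18 with L-histidinol. The 6 sterol genes that fell were DHCR7 (−0.70), EBP (−0.64), ACAT2 (−0.52), FDPS (−0.37), PMVK (−0.36) and IDI1 (−0.30), of which 4 act before squalene and EBP and DHCR7 act in the last steps. On the unmarked IDI1 probe set the difference was 0.41 (limma adjusted p = 0.069), and IDI1 was not called without the vehicle array (−0.22) or without the combination array (−0.24).

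SREBF1 went from 6.44 to 5.54 and from 6.84 to 5.60 (−1.07 ± 0.12, limma adjusted p = 1.6e-05), a ratio of 0.48, and its dimmer second probe set gave −1.06. SREBF2 moved the other way, from 6.86 to 7.39 and from 6.69 to 7.06 (0.45 ± 0.11, limma adjusted p = 0.0069), though without the vehicle array the difference was 0.30 and the call was lost. Its other probe sets gave 0.41 and 0.17. Of the 27 other probe sets of the members called here, 23 had the same sign and 4 the opposite. INSIG1 fell by 0.45 and INSIG2 rose by 0.32. Centring the arrays moved the median of all genes from −0.001 to −0.132 and the split over all genes from 4233 higher and 3800 lower to 3178 higher and 5516 lower. With it 4 members rose and 18 fell, 8 sterol genes fell rather than 6, and INSIG2 (0.19) and ACSS2 (0.24) were not called. ACAT2, ELOVL5, ACSS2 and INSIG2 also lost their call when 1 or another array was left out.

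**Figure D3:**
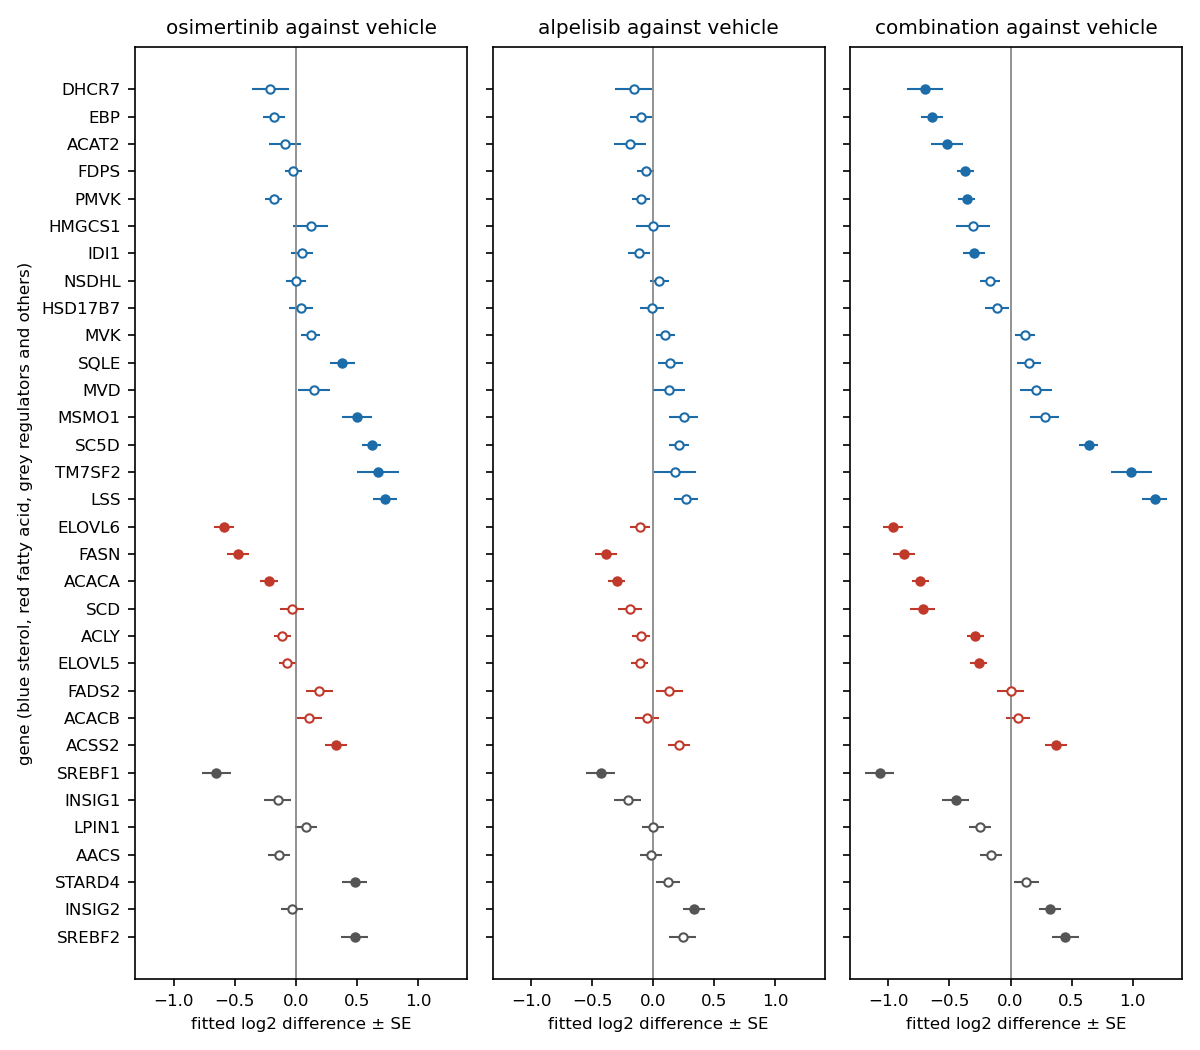
Fitted log2 difference of each member (rows, same order in every panel) for osimertinib, alpelisib and the combination against vehicle, as points with bars of ± 1 SE, filled where the adjusted p is below 0.05. In the combination panel LSS, TM7SF2 and SC5D lie right of 0, whereas ELOVL6, FASN, ACACA, SCD and SREBF1 lie farthest left, and no sterol point is filled in the alpelisib panel.

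**Figure D4:**
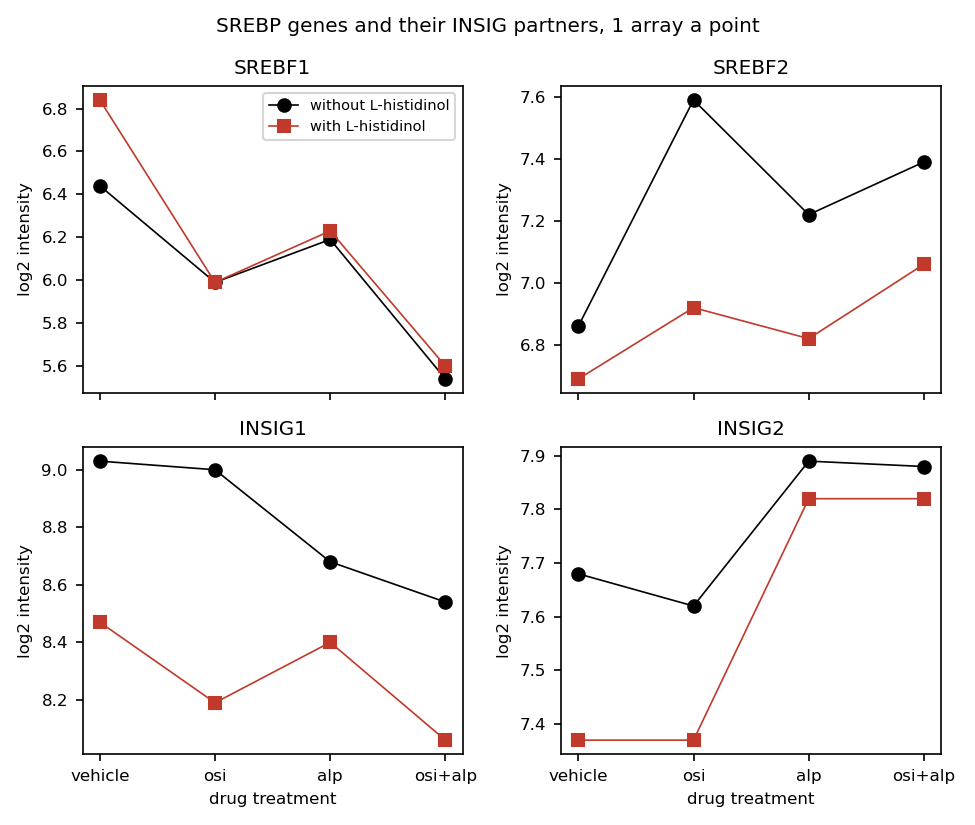
Log2 intensity of SREBF1, SREBF2, INSIG1 and INSIG2 by drug treatment, 1 array a point, without (black circles) and with (red squares) L-histidinol, with lines only joining arrays of a series and axes that do not start at 0. SREBF1 is lowest with both drugs in both series, SREBF2 and INSIG1 are lower with L-histidinol under every drug treatment, and INSIG2 is higher on the 4 arrays with alpelisib than on the drug-matched arrays without it.

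Set against each single drug, the combination lowered more members than it raised. Against osimertinib the sterol median was −0.37 on the pair without L-histidinol and −0.07 on the pair with it. The fatty acid median was −0.32 and −0.15 on these pairs. In that comparison 2 members rose (5.96% of all genes) and 10 fell (7.41% of all genes). The 10 were SCD (−0.68), ACACA (−0.51), EBP (−0.46), SREBF1 (−0.42), FASN (−0.40), ELOVL6 (−0.37), IDI1 (−0.36), FDPS (−0.35), STARD4 (−0.35) and LPIN1 (−0.33), and LSS (0.45) and INSIG2 (0.35) rose. Of these 12 calls, 10 were lost without the osimertinib array and 8 without the combination array. ACACA and SCD were the members that kept their call whichever of the 8 arrays was left out. Against alpelisib, 3 members rose (14.6% of all genes) and 9 fell (14.4% of all genes), with LSS (0.91), TM7SF2 (0.80) and SC5D (0.43) higher and ELOVL6 (−0.86), SREBF1 (−0.64), DHCR7 (−0.54), EBP (−0.54), SCD (−0.52), FASN (−0.48), ACACA (−0.43), FDPS (−0.31) and PMVK (−0.26) lower. Of these the calls of PMVK, FDPS, TM7SF2, SC5D, DHCR7 and SCD were each lost without 1 or another array. The comparisons share arrays, so their lists are not independent of each other.

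The combination was then compared with the sum of the single-drug differences. No member departed from that sum at an adjusted p below 0.05 (0 of 32 in limma's additive fit, 9 at an unadjusted p below 0.05, against 0.0303% of all genes called). The median departure was −0.23 in the sterol branch and −0.18 in the fatty acid branch against −0.02 over all genes, and 28 of 32 values were below 0. The largest departures were those of SCD (−0.49 ± 0.15), MSMO1 (−0.47 ± 0.17), STARD4 (−0.46 ± 0.14) and HMGCS1 (−0.43 ± 0.19), each below 0 both without and with L-histidinol. The size of the SCD departure depended on the probe set. The one used gave −0.03 with osimertinib and −0.19 with alpelisib. The other SCD probe sets already fell with each single drug, by −0.25, −0.44 and −0.34 with osimertinib and −0.32, −0.46 and −0.41 with alpelisib. With all 2-way terms in the fit 9 members were called, all lower than the sum, where 1215 of all 19775 genes were called, 281 higher and 934 lower. The 9 were SCD, MSMO1, STARD4, HMGCS1, SQLE, EBP, LPIN1, FDPS and ELOVL6.

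Other genes of the same pathways moved in both directions. Of 16 further genes of sterol synthesis, isoprenoid and sterol sensing, 9 were measured, and with L-histidinol 3 fell and 1 rose (9.17% and 11.4% of all genes), with a median of 0.05. TMEM97, a sterol-responsive membrane protein, fell by 0.34 and GGPS1, which makes the geranylgeranyl donor, rose by 0.26, while RDH11 and ERG28 each fell by 0.20. Osimertinib raised 3 and lowered 2 of the 9 (16.4% and 14% of all genes), with TMEM97 at −0.71, LBR at −0.64 and ERG28, a scaffold of the demethylation complex, at 0.60. Alpelisib raised 2, ERG28 (0.27) and MBTPS1 (0.25), and lowered LBR (−0.28), against 7.08% and 4.38% of all genes. The combination raised 3 and lowered 3 (21.4% and 19.2% of all genes), the largest being TMEM97, which went from 9.82 to 8.42 without and from 9.46 to 8.40 with L-histidinol (−1.23 ± 0.10, limma adjusted p = 2.5e-06), LBR (−1.0) and RDH11 (−0.53). LBR and TM7SF2 both encode sterol reductases for the same double bond, and they moved in opposite directions with osimertinib and with the combination.

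Of 33 further genes of fatty acid, triglyceride and phospholipid synthesis, 28 were measured. L-histidinol raised 4 and lowered 7 of them (11.4% and 9.17% of all genes; median −0.04), with MID1IP1, an activator of acetyl-CoA carboxylase, at 0.61, TECR, the reductase of very long chain elongation, at −0.60, and SLC25A1, the mitochondrial citrate carrier, at −0.48. TECR measured 9.56, 9.75, 9.59 and 9.37 without and 8.93, 9.11, 8.94 and 8.85 with L-histidinol, so its groups did not overlap. Osimertinib raised 7 and lowered 5 of the 28 (16.4% and 14% of all genes; median 0.07), led by FADS3 (0.91), AGPAT5 (−0.89) and ELOVL7 (0.52). Alpelisib raised ACSL5 (0.54) and lowered DGAT2 (−0.38), AGPAT5 (−0.37) and GPAM (−0.36), against 7.08% and 4.38% of all genes. The combination raised 7 and lowered 8 (21.4% and 19.2% of all genes; median −0.02), with FADS3 at 1.32 ± 0.10, AGPAT5, an acyltransferase of phosphatidate synthesis, at −1.21 ± 0.07 and the elongase ELOVL7 at 1.00 ± 0.10. Thus ELOVL6 fell and ELOVL7 rose under the same treatment, and SCD fell while FADS3, a desaturase relative, rose.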

How the data were processed

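Total RNA went onto 8 Affymetrix U133 Plus 2.0 arrays, 1 for each of 4 drug treatments without and with L-histidinol. Linear intensity for every probe set was deposited, made by the authors with RMA and affy per the submitters' processing notes, which name no version. RMA summarises probes and normalizes arrays together, which shrinks differences of whole arrays. The design had foreseen log2 values, but the table is linear, so log2 was taken first, with no further scaling or filter. Of 54675 probe sets, 62 were controls, 41091 carried 1 gene symbol, 1801 several and 11721 none, and only those with 1 symbol were used, the one with the highest mean per gene. Of the members, 11 had a single probe set and 16 were read from one marked as shared by transcripts or cross-hybridising (_s_at or _x_at).

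The additive model, fitted by limma 3.58.1 under R 4.3.3, took log2 intensity as L-histidinol (2 levels) plus drug treatment (4 levels), with variances moderated along mean intensity (3 residual and 8.08 prior degrees of freedom), Benjamini-Hochberg adjustment over 19775 genes and a call at an adjusted p below 0.05. Errors are standard errors of the fit. Interactions with L-histidinol were taken from a model holding every 2-way term (1 residual degree of freedom) moderated with the additive fit's prior. A log2 difference of 1 is a 2-fold change. The scripts were tested on simulated data.

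The members and the other gene lists were chosen with earlier results of these data known. Values on every array are given for the 6 largest called differences in each comparison with vehicle and for the SREBF and INSIG genes. Of the other lists, up to 3 called genes per comparison are named, or all where few were called. TECR's array values and the genes named for differing between settings were chosen after their values were seen. Alternatives were other probe set choices, scalings, filters, variance models and leaving out each array. Promoters came from a RefSeq table of GRCh38.p14. Python 3.11.15 with pandas 2.3.3 and numpy 2.4.6 made the tables, and matplotlib 3.10.9 the figures.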

Additional observations from a re-analysis of the deposited data

How the results depend on the processing

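The 23 calls for L-histidinol all remained with centred arrays, quantile normalization, a filter at a mean log2 of 5, a robust prior, an offset of 16 and all 2-way terms, 21 remained with the mean of a gene's probe sets and 17 without a variance trend. Leaving out 1 array gave 15 to 23 calls, a sterol median of −0.58 to −0.47 and a fatty acid median of −0.19 to −0.14. Without _x_at and _s_at probe sets, 16 of the 23 had a value, 13 were called for L-histidinol, 11 for the combination and 6 for the combination against alpelisib, and IDI1 turned to 0.06 with L-histidinol and 0.41 with the combination. That setting gave sterol medians of −0.31 (L-histidinol), 0.06 (combination) and −0.02 (combination against alpelisib), and fatty acid medians of −0.14 (combination against alpelisib) and −0.08 (departure from additivity). The mean of probe sets gave sterol medians of −0.34 (L-histidinol) and −0.09 (combination against alpelisib), a fatty acid median of −0.15 with osimertinib and 2 calls with alpelisib. Centring gave sterol medians of −0.02, −0.06 and −0.19 for osimertinib, alpelisib and the combination against alpelisib, and fatty acid medians of −0.17, −0.19, −0.42, −0.24 and −0.12 for osimertinib, alpelisib, the combination, the combination against alpelisib and the departure, which was also −0.12 after quantile normalization. Without a variance trend 0 members were called with alpelisib and 2 for the combination against osimertinib. All 2-way terms gave 13, 23, 21 and 9 calls for alpelisib, the combination against osimertinib, the combination against alpelisib and the departure, and the prior of that fit gave 4 calls in each interaction with L-histidinol. The cause of these changes was not tested.

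With 1 array left out, calls ranged from 6 to 12 for osimertinib, 0 to 4 for alpelisib, 16 to 21 for the combination, 2 to 13 against osimertinib and 8 to 15 against alpelisib, with 0 for the departure. The number of calls over all genes also changed widely with the array left out. These ranges, and the losses of calls given above, are therefore not a result about the members alone. Each of these fits holds 1 drug treatment by a single array. Sterol medians ranged from −0.06 to 0.18 for osimertinib, −0.02 to 0.11 for alpelisib, −0.27 to −0.01 for the combination, −0.34 to −0.08 against osimertinib, −0.26 to −0.08 against alpelisib and −0.31 to −0.11 for the departure. Fatty acid medians ranged from −0.18 to −0.00, −0.14 to −0.08, −0.33 to −0.25, −0.33 to −0.12, −0.28 to −0.12 and −0.20 to −0.09 in the same order. The additive fit already pairs arrays by drug treatment or by L-histidinol, and no further block by replicate was possible, since each condition has 1 array and the labels carry no replicate numbers. The precision is limited by the number of arrays, 1 per condition.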

Other observations

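Genes that move and store cholesterol changed in both directions. Of 17 listed genes of cholesterol efflux, LXR response and intracellular sterol transport, 16 were measured, and with L-histidinol 1 rose and 3 fell (11.4% and 9.17% of all genes; median −0.03): ABCA1, the cholesterol exporter, at 0.26, LPCAT3 at −0.27, NCEH1, a cholesterol ester hydrolase, at −0.25 and NPC2 at −0.21. With osimertinib 6 rose and 2 fell (16.4% and 14% of all genes; median 0.13), with NCEH1 at −1.26, CYP27A1, a sterol hydroxylase, at 0.60 and SOAT1, which esterifies cholesterol, at −0.41. Alpelisib raised NPC2, a lysosomal cholesterol carrier, by 0.57 and OSBPL2 by 0.26 and lowered 0 (7.08% and 4.38% of all genes). The combination raised 7 and lowered 2 (21.4% and 19.2% of all genes; median 0.20). NCEH1 went from 9.31 to 7.73 without and from 9.08 to 7.58 with L-histidinol (−1.54 ± 0.08, limma adjusted p = 1.4e-07), CYP27A1 rose by 1.01 and SOAT1 fell by 0.66.

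Several fatty acid oxidation genes rose with the drugs. Of 22 listed genes 20 were measured, and osimertinib raised 11 and lowered 2 (16.4% and 14% of all genes; median 0.27). Alpelisib raised 8 and lowered 0 of them (7.08% and 4.38% of all genes; median 0.15), and the combination raised 9 and lowered 3 (21.4% and 19.2% of all genes; median 0.25). PDK4, a kinase that restrains pyruvate use, went from 4.88 to 6.55 without and from 4.37 to 7.45 with L-histidinol under the combination (2.37 ± 0.27, limma adjusted p = 2.1e-05). PPARA, a receptor that drives oxidation genes, rose by 1.12 with osimertinib, 0.61 with alpelisib and 1.54 with both. ANGPTL4, an inhibitor of lipoprotein lipase, fell by 1.17 with osimertinib and fell by 1.24 with the combination but rose by 0.60 with alpelisib. L-histidinol raised 3 and lowered 5 of the 20 (11.4% and 9.17% of all genes), among them ECI1 at 0.52, SLC25A20 at −0.43 and CPT2 at −0.39.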
